A study of Arabidopsis thaliana with 24 samples.

Results

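The JAZ proteins (jasmonate ZIM-domain) are the repressors of the jasmonate pathway in Arabidopsis thaliana, and 10 of their genes were followed in plants with and without the transcription factor bZIP68. They were taken as a list of gene identifiers, with earlier results of these data known: JAZ1 (AT1G19180), JAZ2 (AT1G74950), JAZ3 (AT3G17860), JAZ5 (AT1G17380), JAZ6 (AT1G72450), JAZ7 (AT2G34600), JAZ8 (AT1G30135), JAZ9 (AT1G70700), JAZ10 (AT5G13220) and JAZ12 (AT5G20900). Of the 10 genes, 8 had a row in the deposited table of 18430 genes, and these 8 passed the filter on low counts. Expression of JAZ7 and JAZ8 was not analysed here, and both genes enter only the comparisons of peaks and promoters. RNA came from whole seedlings 14 days old of the wild type (wt) and of the bzip68 mutant, grown at 125 µmol of white light per square metre per second with 16 h of light and 8 h of dark, on medium with 3% sucrose and 0.8% agar. Plants of each genotype were sprayed either with water holding 0.01% of the detergent Triton X-100 (mock) or with 5 mM hydrogen peroxide (H2O2), an oxidant, in the same detergent, which gave 4 groups of 3 libraries. Binding of bZIP68 was mapped by chromatin immunoprecipitation with a FLAG antibody in whole seedlings 8 days old that carried bZIP68-FLAG (3 samples), with GFP-FLAG seedlings (3 samples) as the control. No spray is given for those seedlings, and they differ from the RNA plants in age as well. The sources used here give neither the mutant allele, nor the promoter of the FLAG transgenes, nor the time between spray and harvest. Libraries of a group are not stated to be separate cultures, so a p-value speaks to the spread among them, and that spread may be technical.

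Jasmonates are lipid-derived hormones of defence, wounding and fertility. In the resting cell JAZ proteins bind MYC transcription factors and recruit the adaptor NINJA and the co-repressor TOPLESS (TPL). The active hormone, jasmonoyl-isoleucine, joins JAZ proteins to the F-box receptor COI1, the JAZ proteins are degraded and the MYC factors are released. Many JAZ genes are themselves MYC targets, so that transcript levels of the repressors rise when the pathway is active and close a negative feedback loop. MYC factors and the group G bZIP factors, to which bZIP68 belongs, are both known to bind the G-box, a palindrome with the letters CACGTG.

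Totals ran from 8997073 to 10262992 counts per library. BZIP68 itself had 70 to 102 counts in the 6 wt libraries and 0 to 2 in the 6 bzip68 libraries. The second principal component of log2 CPM (CPM being counts scaled to a common library total) held 19.0% of the variance. On it 2 libraries stood apart above the others, mock bzip68 replicate 2 at 42.1 and H2O2 wt replicate 2 at 34.9. The others ran from -29.7 to 15.0, with H2O2 bzip68 replicate 1 at -29.7 and mock bzip68 replicate 1 at -27.9. Chloroplast genes took 0.0121% of the counts of H2O2 wt replicate 2 and 1.05% to 1.54% in each other library. Of the markers of seedling parts, 8 of 8 leaf genes and 10 of 14 root genes were in the table, and 0 of 4 flower and seed genes.

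The larger of the authors' deposited tables of bZIP68 peaks gave 4 of the 10 JAZ genes a peak. Peaks were given to 22.6% of all genes of the count table, and to 18.6% of the 27444 nuclear protein-coding genes in RefSeq. The score of a peak in that table is the authors' own and is 10 times the negative log10 of its p-value. At JAZ12, whose protein is known to be kept stable by the ubiquitin ligase KEG, a peak of 753 bp with a score of 193.66 covered the start of transcription (chr5:7090379-7091131, TAIR10). At JAZ2, a repressor known for its part in guard cells, a peak scored 183.86 and ended 308 bp before the start (chr1:28150752-28151710). JAZ6 had a peak of score 161.64 that ended 175 bp before the start (chr1:27276492-27277488), and its close relative JAZ5 had one of score 115.99 that ended 482 bp before it (chr1:5957694-5958642). These distances are those of the authors' deposited table, and by the RefSeq start, which differs, the peak of JAZ6 also covers its start and reaches 70 bp past it. The median score of that table was 148.95, so JAZ12, JAZ2 and JAZ6 lay above the median peak and JAZ5 below it. In the authors' shorter list, limited to stronger peaks near a start, 0 JAZ genes were present. That list holds far fewer peaks, and the share of all genes in it was not computed. Whether 0 of 10 is fewer than among other genes was therefore not tested.

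The sequences of 3 of these peaks held the G-box, and they are shown because the G-box is the motif known for this family of factors. They are read from RefSeq TAIR10.1 in the orientation of the gene, 5′ to 3′, with CACGTG in capitals, at chr1:28151072-28151157 for JAZ2, chr1:5958055-5958140 for JAZ5 and chr1:27276995-27277116 for JAZ6, all on the minus strand.
JAZ2: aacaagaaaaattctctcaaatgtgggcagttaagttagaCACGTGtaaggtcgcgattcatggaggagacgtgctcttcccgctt
JAZ5: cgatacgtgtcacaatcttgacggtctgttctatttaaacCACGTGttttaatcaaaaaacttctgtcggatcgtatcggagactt
JAZ6: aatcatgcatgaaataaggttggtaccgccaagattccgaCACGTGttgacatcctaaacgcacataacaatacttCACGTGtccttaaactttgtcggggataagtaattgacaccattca
The peak of JAZ6 held 2 G-boxes, 36 bp apart, and those of JAZ2 and JAZ5 held 1 each. In all 3 a G-box lay in the central 300 bp of the peak. Of 5734 nuclear peaks, 47.4% held a G-box anywhere and 31.0% held one in the central 300 bp.

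The peak of JAZ12 held 0 G-boxes. It held 2 copies of AACGTG, a hexamer that shares ACGTG with the G-box, here both on the opposite strand and so written CACGTT in capitals (chr5:7090530-7090693, plus strand, RefSeq TAIR10.1).
JAZ12: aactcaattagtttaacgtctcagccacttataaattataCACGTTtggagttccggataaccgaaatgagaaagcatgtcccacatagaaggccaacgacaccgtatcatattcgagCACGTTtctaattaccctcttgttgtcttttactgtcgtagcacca
These copies lay 78 bp apart, and 32.3% of all nuclear peaks held AACGTG on either strand. JAZ12 therefore had the highest score of the 4 JAZ peaks and was the one without a G-box.

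Within 1000 bp upstream of the RefSeq start, 8 of the 10 JAZ genes held a G-box on either strand, against 16.0% of 18109 genes of the count table. The exceptions were JAZ10 and JAZ12. JAZ2, JAZ3 and JAZ6 held at least 2, against 2.99% of those genes. AACGTG was found before 9 of the 10 JAZ genes and 23.8% of those genes, and the shared core ACGT, which both hexamers contain, before 10 of 10 and 85.0%. Genes of the table with an upstream G-box had a bZIP68 peak in 37.1% of cases, and those without one in 20.1%. Of the 8 JAZ genes with a G-box 3 had a peak. JAZ7 and JAZ8 are among these 8 and have no row in the count table, so the sets compared in this paragraph are not fully alike.

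JAZ genes with an upstream G-box and no peak are shown by JAZ1, whose binding to COI1 is known from a crystal structure, and by JAZ9. JAZ9 was the 1 JAZ gene called after H2O2, by calls lost in most fits that left out 1 library of their own comparison. The G-box is in capitals, 842 bp upstream of the start for JAZ1 (chr1:6620913-6620958, plus strand) and 364 bp upstream for JAZ9 (chr1:26654143-26654188, plus strand, RefSeq TAIR10.1).
JAZ1: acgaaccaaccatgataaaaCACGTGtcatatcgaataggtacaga
JAZ9: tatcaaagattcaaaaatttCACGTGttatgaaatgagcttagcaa
The G-boxes of JAZ3 lay 138 and 80 bp upstream, that of JAZ7 32 bp and that of JAZ8 8 bp, and none of these genes was given a peak. Near JAZ9 the deposited table placed peaks on either side and gave both to neighbours. The first lay 1730 bp before the start of JAZ9 and was given to AT1G70690, with a score of 435.65, and the second lay 3563 bp past that start and was given to AT1G70710, with a score of 339.59. A peak 3111 bp past the start of JAZ10 was given to AT5G13225.

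**Figure D1:**
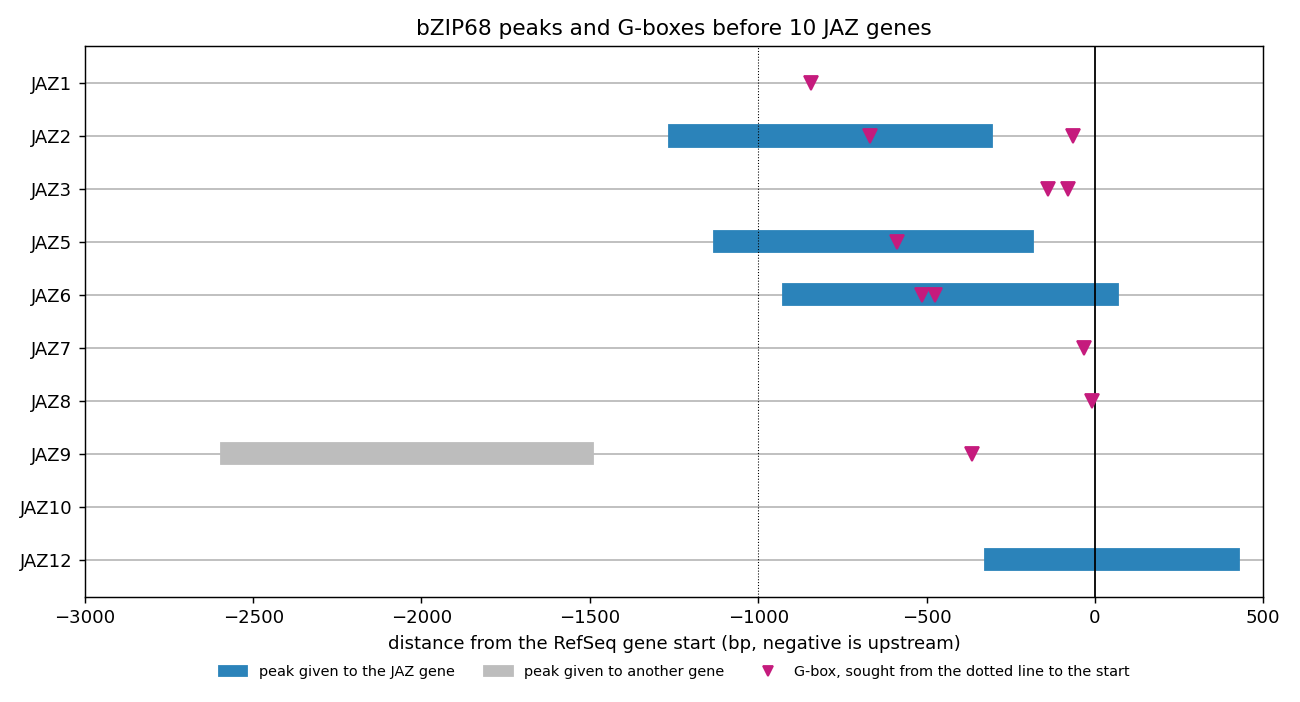
Positions of bZIP68 peaks (bars) and G-boxes (triangles) before 10 JAZ genes, by distance in bp from the RefSeq gene start, negative being upstream, with G-boxes sought in the 1000 bp before the start. JAZ2, JAZ5 and JAZ6 had a peak with a G-box, the peaks of JAZ6 and JAZ12 covered the RefSeq start, and the bar before JAZ9 was given to a neighbouring gene.

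Transcript levels of the 8 measured JAZ genes spanned a wide range. Per kb of the longest RefSeq transcript, mock wt plants had 52.4 ± 12.4 CPM per kb of JAZ9 (SD, n = 3) and 44.3 ± 2.07 of JAZ12. Libraries of these 2 genes overlapped, so their order was not resolved. JAZ6 (32.4 ± 2.88 CPM per kb), JAZ1 (23.9 ± 1.703) and JAZ2 (14.3 ± 2.46) followed, each without overlap with the next. The lowest were JAZ3 (4.26 ± 0.79 CPM per kb), JAZ5 (2.05 ± 0.46) and JAZ10 (0.84 ± 0.25), a gene known for its strong induction by jasmonate. The peaks of bZIP68 thus lay at genes from both ends of this order, with JAZ12 second and JAZ5 seventh of 8.

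The order at the top was another one after H2O2. JAZ12 led with 47.5 ± 2.29 CPM per kb in wt and 53.3 ± 1.28 in bzip68, above JAZ9 with 33.7 ± 6.16 and 42.2 ± 3.96, with no overlap between libraries of the 2 genes in either genotype. In mock bzip68 plants JAZ9 stood at 65.9 ± 7.11 CPM per kb and JAZ12 at 51.6 ± 1.89, also without overlap. JAZ1 and JAZ6 overlapped in the other 3 groups, as JAZ5 and JAZ10 did in mock bzip68 and H2O2 wt plants.

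Over the 12 libraries JAZ12 was the steadiest of the 8 genes and JAZ5 the most variable. JAZ12 ranged from 45.3 to 58.6 CPM, a ratio of highest to lowest of 1.29. JAZ5 ranged from 1.95 to 7.14 CPM, a ratio of 3.66, and rested on 19 to 61 counts per library. JAZ10 had 10 to 34 counts per library, the fewest of the 8, and a ratio of 3.08. JAZ1 (2.53) and JAZ9 (2.48) came next, while JAZ2, JAZ3 and JAZ6 had ratios of 1.54 to 1.704. JAZ10 overlaps a long non-coding RNA on the opposite strand by 71 bp and JAZ12 overlaps opposite-strand genes by 211 and 28 bp. Whether reads were counted by strand is not stated, so their counts are uncertain to that extent.

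**Figure D2:**
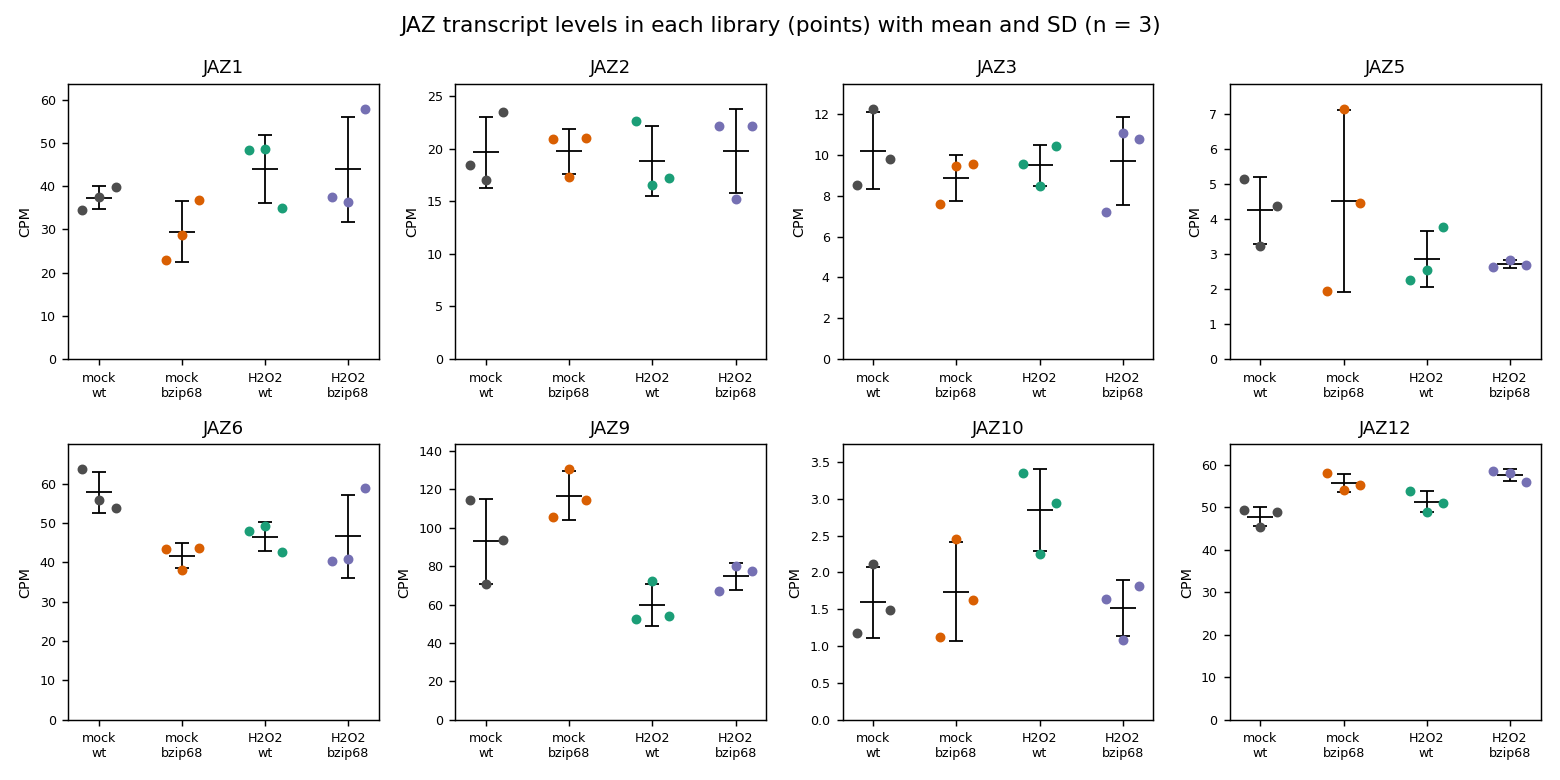
CPM of 8 JAZ genes in each of 12 libraries (points) with the mean and SD of each group (bars, n = 3), on axes that start at 0. JAZ9 lies lower after H2O2 in both genotypes, with 1 mock wt library among the H2O2 values, and JAZ12 varies least.

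Treatment with H2O2 was compared with mock within each genotype to ask how the JAZ genes respond to an oxidant with and without bZIP68. JAZ9 fell in both genotypes and was the 1 JAZ gene called in either. JAZ9 encodes a repressor known to bind MYC2 and the growth-repressing DELLA proteins. In wt its level was 114, 70.5 and 93.7 CPM in the mock libraries and 52.6, 72.3 and 54.3 CPM in the H2O2 libraries. Mock replicate 2 lay below H2O2 replicate 2, so the groups overlapped by that pair, while the other mock libraries lay above every H2O2 library. The fall was 1.55-fold, a log2 fold change of -0.64 ± 0.17 (SE, n = 3 per group; edgeR quasi-likelihood test, Benjamini-Hochberg adjusted p = 0.0268).

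In bzip68, JAZ9 had 106, 130 and 114 CPM in the mock libraries and 66.9, 80.0 and 77.7 CPM in the H2O2 libraries. Every mock library lay above every H2O2 library. The fall was 1.56-fold, a log2 fold change of -0.64 ± 0.17 (edgeR, Benjamini-Hochberg adjusted p = 0.0313). The responses of the genotypes differed by -0.0049 ± 0.24 on the log2 scale (edgeR, Benjamini-Hochberg adjusted p = 0.997). Among all genes tested, 9.74% were called in wt (4.72% lower) and 7.39% in bzip68 (3.28% lower), so 1 of 8 JAZ genes in each genotype is near the share over all genes.

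Neither call of JAZ9 held in most of the fits that left out 1 library of its own comparison. In wt the call held in 2 of the 6 fits that left out 1 of its own libraries. It was lost without mock wt replicate 1 (-0.46, edgeR Benjamini-Hochberg adjusted p = 0.154), mock wt replicate 3 (-0.63, 0.0817), H2O2 wt replicate 1 (-0.55, 0.111) and H2O2 wt replicate 3 (-0.57, 0.116). In bzip68 it held in 1 of 6 such fits, the one without mock bzip68 replicate 1. It was lost without mock bzip68 replicate 2 (-0.55, edgeR Benjamini-Hochberg adjusted p = 0.085) or 3 (-0.66, 0.0817) and without H2O2 bzip68 replicate 1 (-0.57, 0.122), 2 (-0.69, 0.0592) or 3 (-0.67, 0.0937). Without both libraries that stood apart, JAZ9 was at -0.80 in wt (adjusted p = 0.00513 by edgeR) and at -0.55 in bzip68 (0.0518). The value stayed negative in each of these fits.

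Other gene groups moved in the same libraries. Of 9 clock genes, 5 were called higher and 3 lower after H2O2 in wt, and the counts were 5 and 3 in bzip68 too. Their summed level was 546 to 646 CPM in mock wt libraries and 869 to 1053 in H2O2 wt libraries, and 543 to 559 and 825 to 980 in bzip68. The labels give no hour of harvest. An effect of H2O2 and a different time of day therefore cannot be told apart, for JAZ9 or for any other gene compared between H2O2 and mock. Root markers, 10 of 14 of them in the table, summed to 83.4 to 93.1 CPM in mock and 63.9 to 77.8 in H2O2 wt libraries, with 1 called lower. That 1 was SCR, which made up a large part of the fall in wt. It had 35.5 to 46.7 CPM in mock and 23.5 to 25.3 in H2O2 wt libraries. Log2 fold changes in wt were negative for 7 of the 10 root markers and positive for 3. In bzip68 the root markers summed to 103 to 118 and 67.2 to 72.0 CPM, with all 10 negative and 5 called lower. The part of the root markers in the fall of JAZ9 was not tested, and in whole seedlings fewer cells of a type and less RNA per cell cannot be told apart.

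The other 7 JAZ genes did not pass the test after H2O2 in either genotype. In wt JAZ10 had 1.17, 2.12 and 1.49 CPM in mock and 3.35, 2.26 and 2.94 CPM in H2O2 libraries, and JAZ6 had 63.6, 55.8 and 53.9 CPM in mock and 47.9, 49.3 and 42.5 CPM in H2O2 libraries. The groups did not overlap for either gene, which was so for 28.9% of all genes in this comparison. Their log2 fold changes were 0.84 ± 0.33 for JAZ10 (edgeR Benjamini-Hochberg adjusted p = 0.142) and -0.31 ± 0.15 for JAZ6 (0.226).

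In bzip68, JAZ1 had 22.9, 28.7 and 36.8 CPM in mock and 37.4, 36.4 and 57.9 CPM in H2O2 libraries. The groups overlapped by mock replicate 3 and H2O2 replicate 2, and the log2 fold change was 0.58 ± 0.20 (edgeR Benjamini-Hochberg adjusted p = 0.107). JAZ5 had 1.95, 7.14 and 4.44 CPM in mock and 2.62, 2.83 and 2.67 CPM in H2O2 libraries. Its mock libraries were the most scattered of any group, and the H2O2 libraries lay within their range. The log2 fold change of JAZ5 was -0.72 ± 0.37 (edgeR Benjamini-Hochberg adjusted p = 0.307), and it was -1.09 (0.0287) without mock bzip68 replicate 1 and -0.23 (0.855) without mock bzip68 replicate 2. Only JAZ9 was without overlap between groups in bzip68, against 22.0% of all genes.

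Over the 8 genes, log2 fold changes after H2O2 were positive for 3 and negative for 5 in wt, with a median of -0.086. They were positive for 5 and negative for 3 in bzip68, with a median of 0.025. The median over all genes tested was -0.0037 in wt and -0.00056 in bzip68. JAZ2, with a bZIP68 peak, was at -0.067 ± 0.18 in wt and 0.0043 ± 0.18 in bzip68, and JAZ3, named first from a jasmonate-insensitive mutant, at -0.11 ± 0.19 and 0.13 ± 0.20. JAZ12 was at 0.10 ± 0.10 and 0.045 ± 0.10.

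The genotypes were compared within each treatment to ask which JAZ genes depend on bZIP68. After mock treatment 0 of 8 JAZ genes were called by edgeR and 0 by DESeq2, and 2 had an unadjusted p under 0.05 by edgeR. Over all genes these shares were 0.214%, 1.19% and 10.1%. The first of these stands for 39 genes, a count that went down to 8 without mock wt replicate 2 and up to 122 without mock wt replicate 3. Those 2 were JAZ6 and JAZ12, which are also the 2 without overlap between groups, a property shared by 14.2% of all genes. JAZ6 had 63.6, 55.8 and 53.9 CPM in wt and 43.3, 38.2 and 43.8 CPM in bzip68. Every bzip68 library lay below every wt library, and the log2 fold change was -0.47 ± 0.15 (edgeR Benjamini-Hochberg adjusted p = 0.243).

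JAZ12 had 49.3, 45.3 and 49.0 CPM in mock wt and 58.1, 54.1 and 55.3 CPM in mock bzip68 libraries. Every bzip68 library lay above every wt library, a log2 fold change of 0.22 ± 0.10 (edgeR Benjamini-Hochberg adjusted p = 0.482). JAZ9 had a log2 fold change of 0.33 ± 0.17 (adjusted p = 0.55 by edgeR) and JAZ1 of -0.34 ± 0.20 (0.634), both with overlapping libraries. The 4 genes with a bZIP68 peak were at -0.47 (JAZ6), 0.0050 (JAZ2), 0.072 (JAZ5) and 0.22 (JAZ12), so their estimates lay on both sides of 0. The median over the 8 JAZ genes was 0.039 and that over all genes 0.0065.

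Genes known to react to touch and wounding, stimuli that also act on the jasmonate pathway, were followed in the same mock libraries. All 7 of those listed had negative log2 fold changes in bzip68, with a median of -1.22, and all 7 had an unadjusted p under 0.05 by edgeR. Of these 1 was called, TCH3, a calmodulin-like protein (-1.34 ± 0.23, edgeR Benjamini-Hochberg adjusted p = 0.0401). Over all genes 51.1% of log2 fold changes were positive, 10.1% of genes had an unadjusted p under 0.05 and 0.214% were called. That call was lost without mock wt replicate 1 or 2, any 1 of the mock bzip68 libraries, or H2O2 wt replicate 3. The summed level of the 7 genes was 550 to 939 CPM in mock wt and 315 to 363 in mock bzip68 libraries, and 587 to 826 and 488 to 834 CPM after H2O2. TCH3 made up a large part of these sums. It had 318 to 504 CPM in mock wt and 150 to 175 in mock bzip68 libraries, and 236 to 330 and 195 to 385 CPM after H2O2. Of the root markers in the same comparison, 9 of 10 had positive values, with a median log2 fold change of 0.53, 0 called by edgeR and 6 at an unadjusted p under 0.05. They summed to 83.4 to 93.1 CPM in mock wt and 103 to 118 in mock bzip68 libraries. The part of either list in the JAZ values was not tested.

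After H2O2, 0 of 8 JAZ genes were called between genotypes by edgeR and 0 by DESeq2, and 1 had an unadjusted p under 0.05 by edgeR. Over all genes these shares were 0.0714%, 0.395% and 9.23%. That 1 was JAZ10, with 3.35, 2.26 and 2.94 CPM in wt and 1.64, 1.09 and 1.82 CPM in bzip68. The wt libraries lay above those of bzip68 without overlap, on 10 to 34 counts each, and the log2 fold change was -0.90 ± 0.34 (edgeR Benjamini-Hochberg adjusted p = 0.443). JAZ12 was again without overlap, at 53.9, 49.0 and 51.04 CPM in wt and 58.6, 58.2 and 56.0 CPM in bzip68. Its log2 fold change was 0.17 ± 0.10 (edgeR Benjamini-Hochberg adjusted p = 0.628). Groups did not overlap for 16.7% of all genes. JAZ6, lowest in bzip68 after mock, had a log2 fold change of 0.00092 ± 0.15 after H2O2, with bzip68 replicate 3 at 58.8 CPM above all wt libraries. The bzip68 replicates 1 and 2, at 40.3 and 40.8 CPM, lay below all wt libraries, which had 42.5 to 49.3 CPM. Leaving out 1 library at a time gave JAZ6 values of -0.20 to 0.096, so the estimate near 0 depended on single libraries.

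The difference between the H2O2 responses of the genotypes was tested directly. It was called for 0 of 8 JAZ genes by edgeR and by DESeq2. Over all genes edgeR called 0%, with 6.47% at an unadjusted p under 0.05, and DESeq2 called 24 genes, 0.132%. Without mock wt replicate 3 edgeR called 26 genes. Among JAZ genes 1 had an unadjusted p under 0.05 by edgeR, JAZ6, at 0.47 ± 0.21 on the log2 scale (Benjamini-Hochberg adjusted p = 0.757). With 1 library left out at a time, this difference for JAZ6 ran from 0.27 to 0.56. JAZ10 had the largest estimate of the 8, -1.02 ± 0.49 (edgeR Benjamini-Hochberg adjusted p = 0.76). At the counts of JAZ10 and JAZ5 the standard errors of this difference were 0.49 and 0.52, so a difference of about that size lay within the error.

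**Figure D3:**
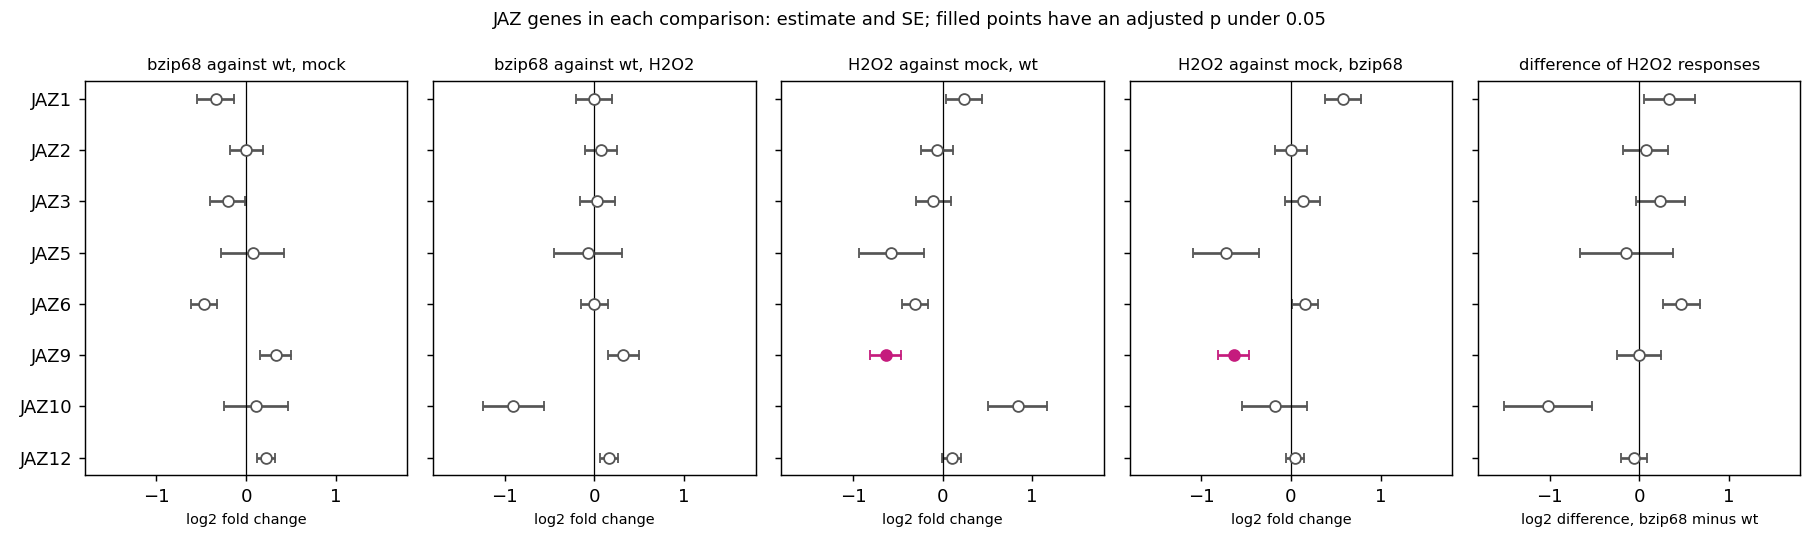
Log2 fold changes with SE of 8 JAZ genes in the 4 comparisons between groups and, at the right, the difference of H2O2 responses (bzip68 minus wt), with filled points for an edgeR Benjamini-Hochberg adjusted p under 0.05. The filled points are JAZ9 at -0.64 in each genotype.

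The other genes of the pathway were followed in 4 lists of 49 genes, of which 39 were tested. Between genotypes 0 of 39 were called in mock plants and 0 after H2O2 by edgeR, with 5 and 5 at an unadjusted p under 0.05 (10.1% and 9.23% of all genes) and 2 and 1 called by DESeq2 (1.19% and 0.395% of all genes). After H2O2 in wt, 2 rose and 2 fell, together 10.3% of the 39 against 9.74% of all genes. In bzip68 1 rose and 2 fell, 7.69% against 7.39%, so both shares are near those over all genes. DESeq2 called 4 of the 39 in wt, against 2010 of all 18205 genes, and 5 in bzip68, against 1587 (8.72%). The difference of responses was called for 0 by edgeR and by DESeq2, with 5 at an unadjusted p under 0.05 by edgeR, against 6.47% of all genes. The median log2 fold change over the 39 genes was 0.083 in wt and -0.036 in bzip68.

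Among partners and targets of the JAZ proteins, MYC4 was called lower in wt and MYC2 in bzip68, both transcription factors that JAZ proteins hold inactive. MYC4 had 38.3, 27.4 and 39.4 CPM in mock wt and 21.8, 15.0 and 15.4 CPM in H2O2 wt libraries, without overlap. Its log2 fold change was -1.01 ± 0.19 (edgeR Benjamini-Hochberg adjusted p = 0.00242). MYC2 had 35.7, 46.2 and 46.4 CPM in mock bzip68 and 30.1, 24.9 and 25.7 CPM in H2O2 bzip68 libraries, also without overlap. Its log2 fold change was -0.67 ± 0.16 (adjusted p = 0.0157 by edgeR). In the other genotype both means were lower after H2O2 as well, with overlapping libraries and no call. MYC4 in bzip68 went from a mean of 29.9 to 22.1 CPM, and MYC2 in wt from 35.2 to 27.9 CPM. The responses of the genotypes differed by 0.57 ± 0.27 for MYC4 and -0.33 ± 0.22 for MYC2 on the log2 scale, and neither difference passed (edgeR Benjamini-Hochberg adjusted p = 0.76 and 0.784). The receptor gene COI1 lay between 31.9 and 39.9 CPM in all 12 libraries and NINJA between 40.4 and 60.2 CPM, and neither was called in a comparison. Of the 13 tested genes of this list, which also holds MYC3 and TPL, 1 was called in each genotype.

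Among enzymes that make jasmonate, AOC2, an allene oxide cyclase, was the 1 of 13 called, and it rose in both genotypes. It had 102, 89.8 and 83.2 CPM in mock wt and 147, 121 and 137 CPM in H2O2 wt libraries, a log2 fold change of 0.56 ± 0.13 (edgeR Benjamini-Hochberg adjusted p = 0.00931). In bzip68 it rose from 71.6, 87.9 and 87.3 CPM to 130, 148 and 142 CPM, a log2 fold change of 0.77 ± 0.13 (adjusted p = 0.00133 by edgeR). The H2O2 libraries lay above the mock libraries in both genotypes. AOC2 has close paralogs, and how counting shared reads among them is not stated, so its values are uncertain. Among 7 tested enzymes of hormone turnover, CYP94B1, a cytochrome P450 of jasmonoyl-isoleucine oxidation, fell in both genotypes.

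CYP94B1 had 7.58, 5.80 and 8.43 CPM in mock wt and 2.26, 2.92 and 2.64 CPM in H2O2 wt libraries, a log2 fold change of -1.48 ± 0.25 (edgeR Benjamini-Hochberg adjusted p = 0.000963). In bzip68 it had 8.82, 13.2 and 10.5 CPM in mock and 7.42, 4.35 and 5.88 CPM in H2O2 libraries, at -0.88 ± 0.22 (adjusted p = 0.0235 by edgeR). Neither genotype had an overlap. Between genotypes after H2O2, CYP94B1 was higher in bzip68, at 1.17 ± 0.25, and edgeR did not call it (Benjamini-Hochberg adjusted p = 0.155). DESeq2 did (1.17, adjusted p = 0.027), its 1 call among the 39 genes there. These groups did not overlap, which was so for 16.7% of all genes. IAR3, a hydrolase of amino acid conjugates of jasmonate and auxin, was at 0.46 ± 0.13 in wt (adjusted p = 0.0392 by edgeR), with 28.4 to 37.7 CPM in H2O2 and 21.9 to 26.4 CPM in mock libraries. In bzip68 it was at 0.048 ± 0.14, and the difference of responses, -0.42 ± 0.19, did not pass (adjusted p = 0.76 by edgeR).

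Of the 6 tested output genes, those the pathway is known to switch on, 0 were called in any comparison by edgeR, with 3 at an unadjusted p under 0.05 in the mock comparison of genotypes, against 10.1% of all genes. DESeq2 called VSP1 and VSP2 there, vegetative storage proteins of the MYC branch. VSP2 had 20.6, 24.1 and 17.0 CPM in mock wt and 26.6, 46.6 and 40.6 CPM in mock bzip68 libraries, without overlap. Its log2 fold change was 0.88 ± 0.19 (edgeR Benjamini-Hochberg adjusted p = 0.0843), and 0.89 with an adjusted p of 0.00625 by DESeq2. VSP1 was at 0.85 ± 0.19 (adjusted p = 0.104 by edgeR, 0.0152 by DESeq2). Without mock bzip68 replicate 1, edgeR called both, at 1.09 for VSP2 and 1.07 for VSP1. The other 11 fits that left out 1 library called neither, with adjusted p up to 0.311 for VSP2 and 0.375 for VSP1 by edgeR, and without the 2 libraries that stood apart they were at 0.71 and 0.73. After H2O2 in bzip68 DESeq2 called VSP1 (-0.67, adjusted p = 0.0298) and ORA59, a transcription factor of the ethylene branch (1.56, adjusted p = 0.0261), where edgeR gave adjusted p of 0.0503 and 0.0763. Between genotypes after H2O2, VSP2 was at 0.69 ± 0.19 without overlap, and neither method called it (edgeR Benjamini-Hochberg adjusted p = 0.252). These genes were singled out after their values were seen.

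Of these pathway calls, MYC4 and CYP94B1 in wt and AOC2 in bzip68 held in each of the 12 fits that left out 1 library. AOC2 in wt was lost without mock wt replicate 3. MYC2 was lost without mock bzip68 replicate 3, H2O2 bzip68 replicate 2 or H2O2 bzip68 replicate 3. CYP94B1 in bzip68 was lost without replicate 2 or 3 of either group and without both libraries that stood apart. IAR3 held in 6 of the 12 fits and was lost without mock wt replicate 1 or 3, H2O2 wt replicate 1 or 3, mock bzip68 replicate 3 or H2O2 bzip68 replicate 2.

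**Figure D4:**
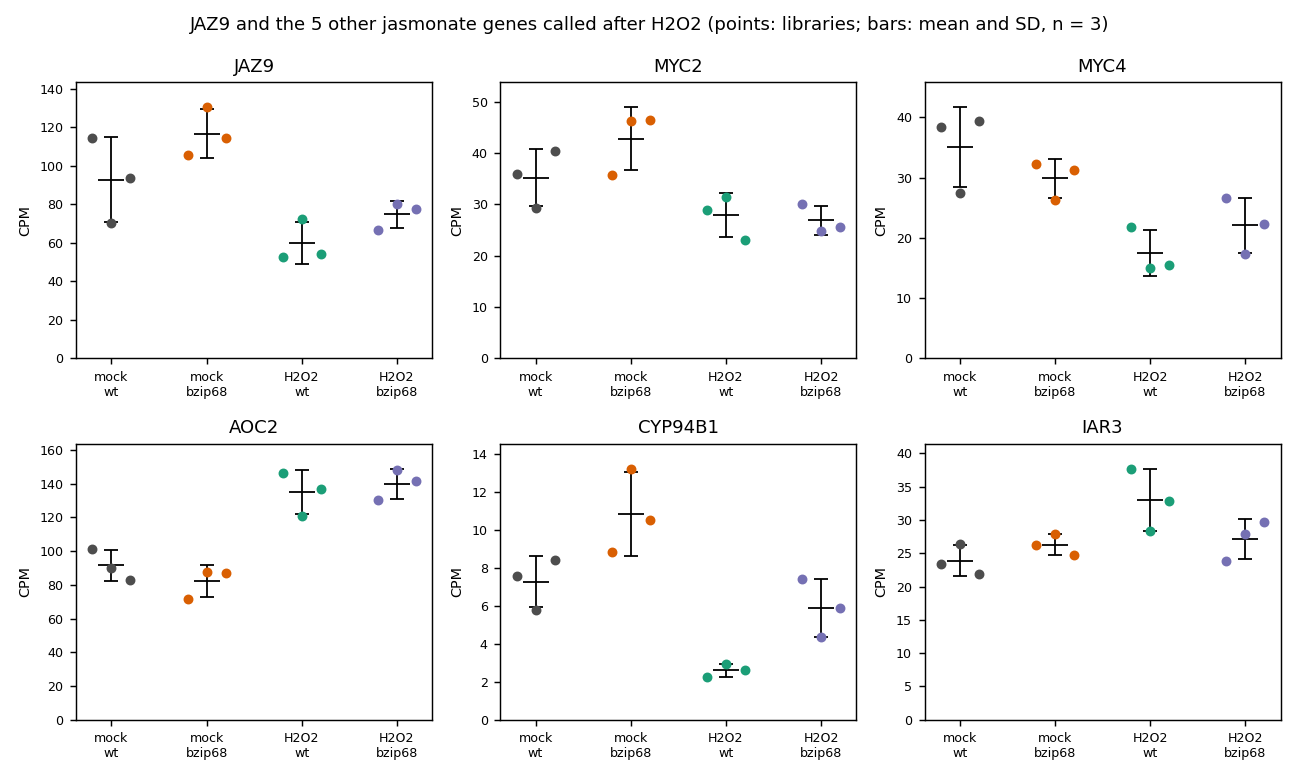
CPM of JAZ9 and of the 5 other jasmonate genes called after H2O2 in either genotype, in each of 12 libraries (points) with the mean and SD of each group (bars, n = 3), on axes that start at 0. H2O2 libraries lie below all mock libraries of their genotype for CYP94B1 and MYC4 in wt and for JAZ9, MYC2 and CYP94B1 in bzip68, and above them for AOC2 in both genotypes and IAR3 in wt.

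Peaks of bZIP68 were found beyond the JAZ genes in each of these lists. By the authors' deposited table, a peak was given to 7 of 14 signalling genes, 9 of 14 synthesis genes, 5 of 10 turnover genes and 2 of 11 output genes, against 22.6% of all genes of the count table and 18.6% of those in RefSeq. The share among output genes is near these. Lists outside the pathway had a peak at 5 of 8 leaf, 5 of 9 clock and 3 of 7 touch genes. The counts were 2 of 14 for root, 1 of 2 for guard cell and 1 of 4 for flower and seed genes. A share above that over all genes was thus not particular to the jasmonate lists. The peak of MYC2 covered its start with a score of 383.97 (chr1:11799743-11801372), and that of CYP94B1 had a score of 986.14 (chr5:25408922-25410215). The 23 peaks of the jasmonate lists scored from 62.22 at AOS to 1832.44 at DAD1, with a median of 175.21. The scores of the 4 JAZ peaks were 115.99 to 193.66, above 6 of the 23, below 10 and among the other 7.

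The JAZ genes did not share 1 pattern over the 12 libraries. Pearson's r of log2 CPM was 0.59 between JAZ5 and JAZ9 and 0.47 between JAZ1 and JAZ6. It was -0.60 between JAZ6 and JAZ12, -0.56 between JAZ9 and JAZ10 and -0.52 between JAZ1 and JAZ9. The mean of the 8 standardised log2 CPM profiles was compared with 14507 other genes that had a mean of at least 5 CPM, and the 5 most alike were AT4G30990 (r = 0.92), ATRER1C1 (0.87), WAVE5 (0.87), CHX20 (0.87) and TCP4 (0.86). These values are descriptions over 12 libraries that share 4 groups, with no test.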

How the data were processed

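Gene values were whole-number counts that the authors deposited in 1 table. The submitters' processing notes name TopHat2 2.1.0 and RSEM 2.1.30 for RNA, MACS 1.4.3 and ChIPseeker for peaks, and TAIR10. They do not say whether the counts are rounded RSEM estimates. Per-sample columns that matched a label numbered 12, and 6 others matched none and were left out, so low light plants are not analysed here. The authors made the peak score from the p-value of each peak, called against GFP-FLAG at 1e-05, per the file headers. The shorter list was limited by the authors to adjusted p-values under 1e-30 and to -1500 to 500 bp around the start, per the file headers. Whether samples were pooled for peak calling is not stated.

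After filterByExpr, 18205 genes were tested with TMM scaling in edgeR 4.0.16 (quasi-likelihood, robust, 1 mean for each of 4 groups, 8 residual degrees of freedom), with Benjamini-Hochberg adjustment over all genes tested at 0.05. Standard errors come from the F statistic. CPM used TMM-scaled totals, and log2 CPM a prior count of 2. DESeq2 1.42.0, other scaling, no filter, fewer libraries and a replicate block were alternatives. Tested on simulated data for H2O2 against mock in wt (18070 genes), the fit recovered 83 of 100 genes changed by 1 on the log2 scale and 100 of 100 changed by 2, with 14 false calls. The changed genes were drawn from levels above the mock wt means of JAZ5 (4.24 CPM) and JAZ10 (1.59 CPM). Changes under 1 were not simulated, so the recovery does not speak to smaller changes or to those 2 genes. Replicates all differed beyond counting noise, with chi-square values of 6.06 to 28.3 for each degree of freedom. In bzip68, deviations of mock and H2O2 libraries with the same number correlated at 0.37, 0.49 and 0.18, and in no other comparison were all 3 above 0.1. The labels do not state pairs, and the main fit used none. The replicate block, an alternative setting, was applied over all 4 groups.

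Positions and motifs came from RefSeq TAIR10.1. Of 5412 nuclear genes with a peak, 5265 were found there by locus tag and all 5265 overlapped the deposited position. Gene starts differ between the annotations, so peak distances are the authors' and G-box distances are from RefSeq. The JAZ genes, the other lists and the tests were chosen with earlier results of these data known. The text names each JAZ gene, the genes of each other list with the smallest adjusted p under 0.05 (at most 3 for each list and comparison), and the 5 genes most like the mean standardised profile of the JAZ genes. COI1, NINJA, VSP1, VSP2, ORA59, AOS, DAD1, the touch and clock lists as sums and the peaks of MYC2 and CYP94B1 were added after their values were seen. So was the value of CYP94B1 between genotypes after H2O2. ZAT12 and WRKY33 (touch, H2O2 against mock in bzip68, 1.81 and 1.17) and the clock genes ELF4 (3.70 in wt, 3.44 in bzip68), LHY (-3.29, -2.89) and LUX (1.85, 2.27) met the rule too.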

Additional observations from a re-analysis of the deposited data

How the results depend on the processing

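Of 232 log2 fold changes of JAZ genes under another setting, 212 kept their direction and their side of the threshold, 19 changed sign, none of them called, and 1 lost its call. DESeq2, other size factors, no filter on low counts and the libraries of a comparison alone left both calls of JAZ9. The replicate block gave JAZ9 at -0.65 in wt and -0.64 in bzip68 and changed no call of a JAZ gene. Without the 2 libraries that stood apart, 0 JAZ genes were called after H2O2 in bzip68. That setting turned the sign of JAZ5 (-0.42) and JAZ10 (-0.21) between genotypes in mock plants, of JAZ1 (0.074), JAZ2 (-0.0088) and JAZ3 (-0.044) between genotypes after H2O2, of JAZ2 in the wt response (0.018), of JAZ2 (-0.080) and JAZ10 (0.14) in the bzip68 response, and of JAZ2 (-0.098), JAZ5 (0.27) and JAZ9 (0.24) in the difference of responses. JAZ6 between genotypes after H2O2 was at -0.0023 by DESeq2, -0.0024 with other size factors, -0.0012 with the libraries of the comparison alone and -0.0080 with the replicate block. JAZ2 in the bzip68 response was at -0.00045, -0.00058 and -0.0038 by DESeq2, other size factors and the block, and JAZ9 in the difference of responses at 0.0082 with the block. The cause was not tested. The shorter peak list held 0 JAZ genes, with no share over all genes computed to set beside it. The nearest edge of each of the 4 JAZ peaks lay within 1000 bp of a start, and the far edges of those of JAZ2, JAZ5 and JAZ6 lay beyond it. The setting with the libraries of a comparison alone gives no value for the difference of responses, which uses all groups. VSP2 between genotypes in mock plants passed with the block (0.88, edgeR Benjamini-Hochberg adjusted p = 0.0486), where replicates share only a number. TCH3 lost its call with the block and without the 2 libraries that stood apart. Over all genes, calls between genotypes in mock plants were 39 by edgeR, 216 by DESeq2, 17 with the libraries of the comparison alone and 73 without the 2 libraries that stood apart, and after H2O2 they were 13, 72, 31 and 27, with 21 under the block. Leaving out 1 library moved these counts from 39 to between 8 and 122, by over 1.5 times in 8 of 12 fits, and from 13 to between 8 and 29. It moved the 1773 calls of the wt response to between 1126 (without mock wt replicate 3) and 2289, the 1346 of the bzip68 response to between 719 (without H2O2 bzip68 replicate 3) and 1753, and the 0 of the difference to at most 26.

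Leaving out 1 library at a time gave 480 values, of which 427 kept direction and side, 43 changed sign, 9 lost a call and 1 gained one. JAZ genes called ranged from 0 to 1 in the wt response and 0 to 2 in the bzip68 response. Ranges that crossed 0 were, between genotypes in mock plants, JAZ2 -0.087 to 0.15, JAZ5 -0.42 to 0.44 and JAZ10 -0.21 to 0.36. After H2O2 they were JAZ1 -0.25 to 0.11, JAZ2 -0.0098 to 0.23, JAZ3 -0.075 to 0.21, JAZ5 -0.21 to 0.17 and JAZ6 -0.20 to 0.096. In the wt response they were JAZ2 -0.22 to 0.082 and JAZ3 -0.22 to 0.046, and in the bzip68 response JAZ2 -0.082 to 0.16, JAZ6 -0.043 to 0.25 and JAZ10 -0.42 to 0.14. In the difference of responses they were JAZ2 -0.077 to 0.23, JAZ5 -0.51 to 0.34 and JAZ9 -0.18 to 0.16. JAZ5 (19 to 61 counts) and JAZ10 (10 to 34 counts) had the lowest depth of the 8 genes, and the parts of depth and of spread between libraries in their errors were not tested.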
